A study of Mus musculus with 74 samples.

Results

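Gsk3b encodes glycogen synthase kinase 3 beta. It is 1 of 5844 genes named by a single symbol on these arrays, and it was measured by 4 of the 8976 probes on each of 74 dual-channel mouse cDNA arrays. The 4 are the probes whose only gene symbol in the platform annotation is Gsk3b, and they are called 1358, 1912, 3416 and 6410 after their probe numbers. Each array compared RNA of cells given TGF-β (channel 2) with RNA of cells not given it (channel 1), within a single line. The 5 lines were S2WT, S3WT, S2KO, S3KO and S2WT/U0126. Each line was hybridised in triplicate 0, 0.3, 1, 2 and 4 h after TGF-β, except that S3KO has 2 arrays at 1 h. No TGF-β had been given in either channel at 0 h, so those arrays give the background ratio of a probe.

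The labels do not spell out S2 and S3, which in the published study with this design stand for Smad2 and Smad3, the transcription factors that TGF-β receptors activate. WT and KO lines are thus read as wild type and knockout. U0126 is an inhibitor of the kinase MEK. The S2WT/U0126 arrays carry titles that set S2WT against U0126, while their channel labels name both together without and with TGF-β; the channel labels were followed, and under the other reading the drug would differ between the channels. The S2WT 4 h arrays carry 2 h in their channel labels, and both channels of the S3KO 0.3 h arrays are labelled as without TGF-β. The labels give no cell type, clone or culture for a replicate, so the spread between arrays may be technical. A ratio within a line checks neither the knockout nor the cell type.

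GSK3β is a serine/threonine kinase that is active in resting cells. Akt and other kinases switch it off by phosphorylating a serine near its amino end. In a complex with Axin and APC it phosphorylates β-catenin and so marks it for destruction, until Wnt signalling stops this. Because the kinase is controlled mainly through phosphorylation and binding partners, an mRNA ratio does not measure its activity.

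The sequence around the start of the gene is shown because Smad proteins act on promoters. Where the 4 probes lie in the transcript is not known here. It is the RefSeq window of 300 bases on GRCm38.p6, plus strand, chr16:38088751-38089050, with 250 bases before and 50 after the start. Capitals mark CAGAC, the core Smad-binding box, and CCAAT, a common promoter element, each searched on both strands (GTCTG and ATTGG).

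Gsk3b promoter: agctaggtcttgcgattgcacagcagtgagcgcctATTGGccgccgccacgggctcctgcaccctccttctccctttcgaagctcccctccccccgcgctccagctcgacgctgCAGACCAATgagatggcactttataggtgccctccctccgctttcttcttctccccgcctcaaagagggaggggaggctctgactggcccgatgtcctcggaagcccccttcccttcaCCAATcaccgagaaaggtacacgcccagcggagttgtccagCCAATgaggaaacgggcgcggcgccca

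The window held 1 CAGAC, whose last base is also the first base of a CCAAT. Of 32851 mouse promoter windows of the same length, 49.6% held CAGAC. The 4 CCAAT matches compare with 37.4% of windows that held any and 1.06% that held at least as many. A match describes the letters and is not a measured binding site.

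Values below are log2 ratios after subtraction of the array's median, so they are relative to the median probe of the array. The direction was not stated and was read as TGF-β over no TGF-β, which is likely but not certain. The reading rests on genes known to be induced by TGF-β, such as Skil, the Smad corepressor SnoN, which was at 1.22 ± 0.15 (SE) in S2KO and 0.52 ± 0.15 in S2WT at 1 to 4 h against the 0 h arrays of all lines. If the direction were turned, every sign below would turn with it. The arrays gave values for 7688 to 8713 probes each, and the signal behind them is unknown. Of the S3KO 1 h arrays, replicate 2 ran against the average 0 h array of the remaining lines (r = -0.38) and replicate 3 with it (r = 0.55), across the 2244 probes measured on every array. Leaving out either of them moved the S3KO differences below by at most 0.04.

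Gsk3b was chosen by the same log2 ratios, across the lines and times, that are described here. Its levels and differences are therefore given as a description, without p-values, and a count of Gsk3b probes called supports nothing by itself. "Called" means an adjusted p under 0.05 by limma's moderated test, with Benjamini-Hochberg adjustment over all probes tested. Counts at an unadjusted p under 0.05 are given below without the share of all probes at that level. They therefore show no excess for Gsk3b or for a list.

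Most Gsk3b ratios lay close to the median probe of the array. Of 283 measured values 19 lay more than 1 log2 unit from 0, 7 of them in S2WT/U0126, 7 in S3KO, 3 in S2WT and 1 each in S2KO and S3WT. Probe 1358 ranged from -1.53 to 0.67 on 72 arrays, with a median of -0.03. Probe 3416 had the same median on 72 arrays and ranged from -1.66 to 1.85. Probe 1912 ranged from -3.21 to 0.91 on 68 arrays, with a median of -0.09. Probe 6410 ranged from -1.69 to 1.38 on 71 arrays, and its median of -0.17 was the lowest of the 4, with 56 of the 71 values below 0. The replicate spread also differed. The SD of arrays around their group means was 0.36 for probe 1358, 0.35 for 6410, 0.44 for 3416 and 0.63 for 1912, which lies at percentiles 27.2, 26.2, 37.2 and 55.5 of the 8681 probes with enough arrays. Probe 1912 held 9 of the 19 values beyond 1 log2 unit, all below 0.

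**Figure D1:**
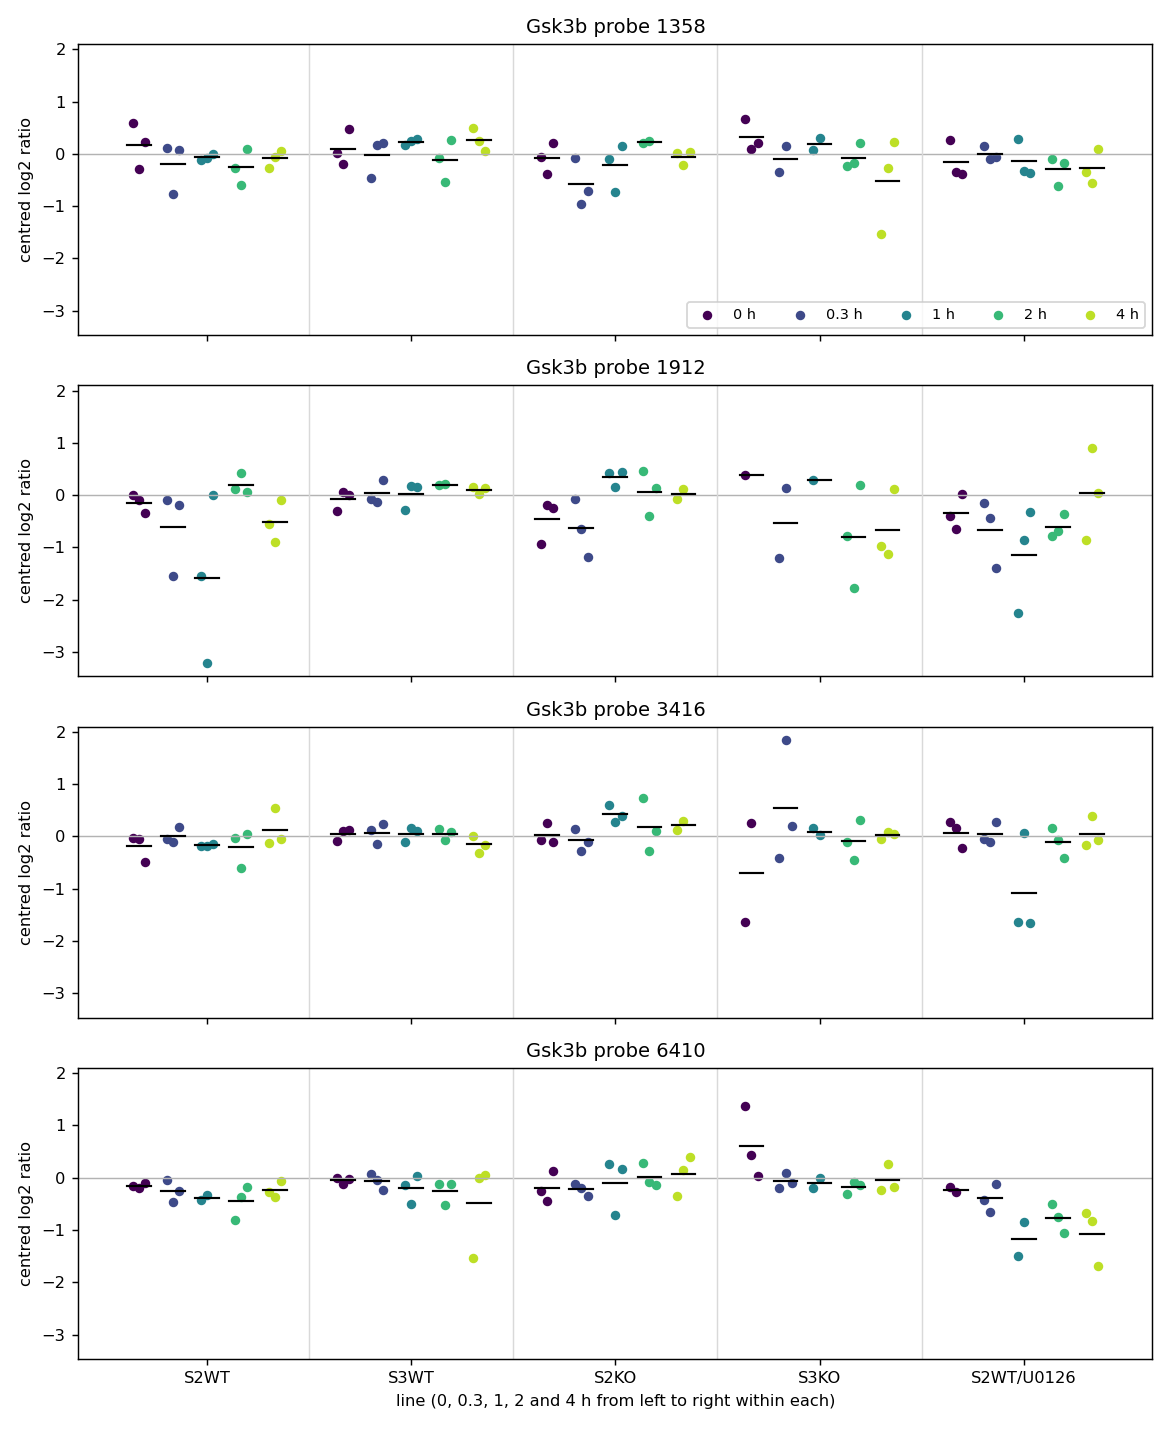
Centred log2 ratio (y axis) of each Gsk3b probe on every array, by line and, within a line, by time from 0 to 4 h (colour); points are arrays and black bars are group means. Most points lie near 0, and probe 6410 is below -0.50 or at it on each measured S2WT/U0126 array at 1, 2 and 4 h.

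Probe 6410 was low on every S2WT/U0126 array from 1 h on, where TGF-β was given together with the MEK inhibitor by the channel labels. At 0 h this probe read -0.17 and -0.28, with the third array missing. At 0.3 h it read -0.42, -0.65 and -0.11. It then read -1.50 and -0.84 at 1 h, again with the third array missing. All of these were below 0. The 1 h values lay below the 0 h and 0.3 h values, and the share of all probes that do so is not given here. At 2 h the arrays gave -0.50, -0.75 and -1.06. At 4 h they gave -0.68, -0.83 and -1.69. The 8 arrays from 1 to 4 h thus lay between -1.69 and -0.50, all below the 2 arrays at 0 h. Among all probes tested in this line, 1.63% had every array from 1 to 4 h below every own 0 h array. That share includes probes measured on more arrays than the 2 and 8 of probe 6410, and fewer arrays separate more easily. The means at 0, 0.3, 1, 2 and 4 h were -0.23, -0.39, -1.17, -0.77 and -1.07, and the SDs within 1, 2 and 4 h were 0.47 (n = 2), 0.28 (n = 3) and 0.55 (n = 3), so these 3 times overlap and no order among them can be read.

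The other probes did not share this pattern on the S2WT/U0126 arrays. At 1 h probe 3416 read -1.63, 0.06 and -1.66, whereas it stayed between -0.42 and 0.40 at 2 and 4 h. The low 1 h mean of -1.08 ± 0.99 (SD, n = 3) therefore came from 2 of 3 arrays at a single time. Probe 1912 read -2.25, -0.86 and -0.33 at 1 h, -0.78, -0.69 and -0.36 at 2 h, and -0.86, 0.91 and 0.05 at 4 h. Its arrays at 0 h, at -0.39, -0.64 and 0.02, overlap all 3 of these times. Probe 1358 lay between -0.61 and 0.28 from 1 to 4 h, against -0.38 to 0.26 at 0 h, and the ranges overlap almost fully. At 1 h the first array was the lowest or next to lowest of its group on probes 1912, 3416 and 6410, and the highest on probe 1358.

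In S2WT, the same wild-type line without the inhibitor by its labels, probe 6410 was also below 0 on each of 8 arrays from 1 to 4 h, between -0.80 and -0.06 with a median of -0.35. In S2WT 8.61% of probes were below 0 on every such array, and in S2WT/U0126 7.03%. The S2WT 0 h arrays, at -0.16, -0.19 and -0.10, lie inside the treated range. The treated ranges of S2WT and S2WT/U0126 overlap between -0.80 and -0.50. Probe 1912 gave the lowest single value of the gene in S2WT, at 1 h, where the arrays read -1.54, -3.21 and 0.00. The mean at 1 h was -1.59 ± 1.60 (SD, n = 3). At 2 h the same probe read 0.11, 0.43 and 0.07, all above 0, and at 4 h it read -0.56, -0.89 and -0.10, all below 0, so the times do not follow a single direction. The S2WT arrays of probes 1358 and 3416 from 1 to 4 h ranged from -0.59 to 0.09 and from -0.61 to 0.54, and both overlapped their 0 h arrays.

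In S3WT most arrays stayed near 0 at every time. Probe 3416 stayed between -0.31 and 0.16 on its 9 arrays from 1 to 4 h, and between -0.08 and 0.12 at 0 h. Probe 1912 stayed between -0.29 and 0.21 on 8 arrays, and probe 1358 between -0.53 and 0.49 on 9. On probe 6410 a single 4 h array at -1.53 stood apart from its replicates at 0.00 and 0.06, and the other 6 treated arrays lay between -0.53 and 0.04.

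In S2KO the treated arrays lay mostly above 0 on probes 1912 and 3416. Probe 3416 read 0.60, 0.28 and 0.40 at 1 h, against -0.07, 0.25 and -0.10 at 0 h. At 2 h it read 0.74, -0.28 and 0.10 and overlapped the 0 h arrays. Probe 1912 read 0.43, 0.15 and 0.44 at 1 h, against -0.94, -0.19 and -0.25 at 0 h, and its 8 arrays from 1 to 4 h lay between -0.40 and 0.47. These overlap the 0 h values. How many of all probes separate 1 h from 0 h in this line, as both of these probes do, is not given here. Probe 6410 spread from -0.71 to 0.40 and probe 1358 from -0.72 to 0.24, with 0 h arrays inside each range.

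In S3KO the differences from 0 h on probes 6410 and 3416 came mainly from the 0 h arrays themselves. Probe 6410 read 1.38, 0.43 and 0.03 at 0 h but -0.31 to 0.26 on 8 arrays from 1 to 4 h. Probe 3416 read -1.63 and 0.25 at 0 h with the first array missing, and -0.45 to 0.31 from 1 to 4 h. The treated arrays of both probes are therefore near the median probe of their arrays. At 0.3 h, where the labels name no TGF-β in either channel, probe 3416 read -0.41, 1.85 and 0.20. Probe 1912 was measured on only 1 of 3 arrays at 0 h, at 0.38, and read -0.79, -1.78 and 0.19 at 2 h and -0.98, -1.12 and 0.11 at 4 h. At both times the third array lay above the other two, and at 0.3 h it read 0.13 against -1.20 on the second. A 4 h array of probe 1358 at -1.53 stood apart from -0.27 and 0.22.

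The first comparison asks how TGF-β changes Gsk3b in each line, as the mean of the 1, 2 and 4 h group means minus the 0 h mean of the same line. The sizes were small against their errors in most cases. In S2WT the log2 differences ± SE were -0.31 ± 0.24 for probe 1358, -0.49 ± 0.42 for 1912, 0.10 ± 0.29 for 3416 and -0.20 ± 0.24 for 6410. In S3WT they lay between -0.27 ± 0.24 for 6410 and 0.18 ± 0.42 for 1912. In S2KO all 4 were above 0, from 0.06 ± 0.25 for 1358 to 0.60 ± 0.42 for 1912. Without 0 h replicate 2 probe 1358 was at -0.10. Without subtraction of the 0 h arrays it was at -0.02, probe 6410 at -0.01 and probe 1912 at 0.14. In S2WT/U0126 all 4 were below 0, from -0.08 ± 0.24 for 1358 (0.03 on uncentred arrays) to -0.78 ± 0.29 for 6410, with -0.24 ± 0.42 for 1912 and -0.45 ± 0.29 for 3416. In S3KO probe 6410 was at -0.72 ± 0.24, probe 1358 at -0.46 ± 0.25 and probe 3416 at 0.71 ± 0.35, so the probes pointed in opposite directions. Probe 1912 had too few S3KO arrays to be fitted.

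Of these 19 probe-by-line differences limma called 0, with 3 at an unadjusted p under 0.05, a level with no share of all probes given here. Among all probes limma called 0.192% in S2WT and 0.12% in S3WT. It called 0.515% in S2KO, 1.53% in S3KO and 0.0719% in S2WT/U0126. The S3KO values of probes 3416 and 6410 rest on single 0 h arrays, while probe 1358 stayed between -0.59 and -0.29 with 1 array left out. Without 0 h replicate 2 probe 3416 turned to -0.23, and without replicate 3 it was at 1.65. Probe 6410 was at -0.34 without 0 h replicate 1 and at -1.01 without replicate 3. Probe 6410 was called in S3KO only when 0 h replicate 3 was left out, where calls over all probes rose from 114 to 592. In that fit probe 3416 rested on 0 h replicate 2 alone.

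**Figure D2:**
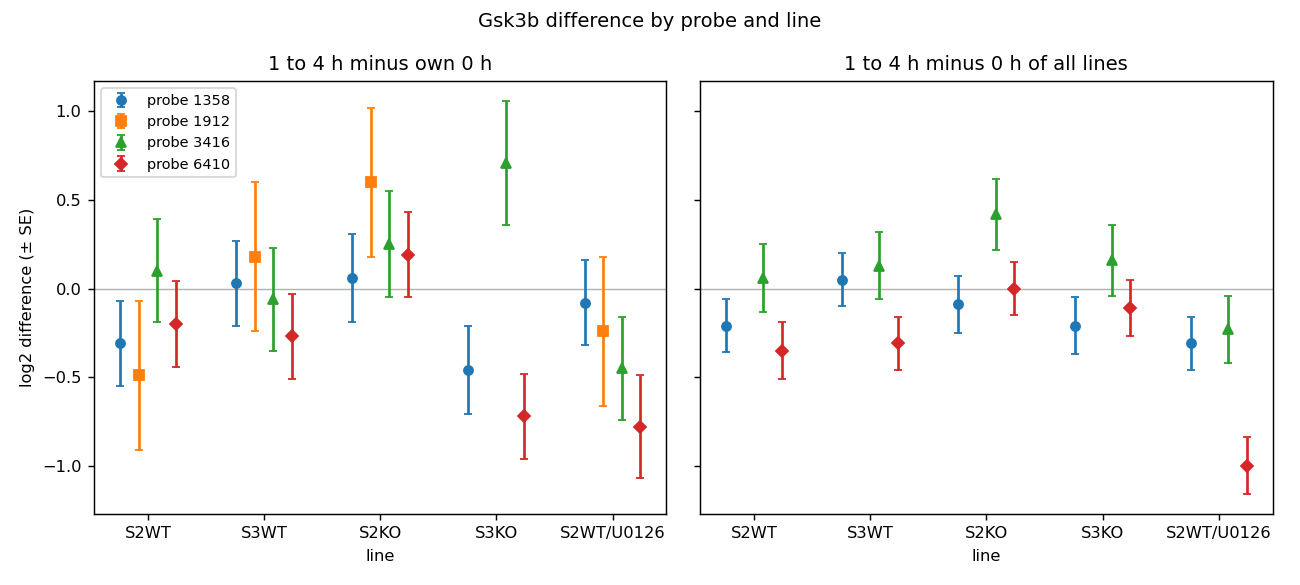
Log2 difference ± SE (y axis) between the 1 to 4 h arrays and the 0 h arrays for each Gsk3b probe (colour and shape) in each line, against the line's own 0 h arrays (left) and those of all lines (right, where probe 1912 could not be fitted). Probe 6410 in S2WT/U0126 is the lowest point of the right panel at -1.0, and the other points there lie between -0.35 and 0.42.

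A line has at most 3 arrays at 0 h, so the treated arrays were also set against the 0 h arrays of all 5 lines, which assumes that the lines share a background. Probe 6410 was then at -1.0 ± 0.16 in S2WT/U0126, the line that stood lowest. It was at -0.35 ± 0.16 in S2WT and -0.31 ± 0.15 in S3WT, at 0.00 ± 0.15 in S2KO, and at -0.11 ± 0.16 in S3KO. These comparisons share their control arrays. On probe 3416 the values ran from -0.23 ± 0.19 in S2WT/U0126 to 0.42 ± 0.20 in S2KO. On probe 1358 they ran from -0.31 ± 0.15 in S2WT/U0126 to 0.05 ± 0.15 in S3WT. Of 15 such differences limma called 1, probe 6410 in S2WT/U0126. Of all probes, 1.27% were called in S2WT and 0.146% in S3WT, against 2.49% in S2KO, 0.0141% in S3KO and 0.782% in S2WT/U0126. In the last line 59 probes were called, 33 higher (0.437%) and 26 lower (0.345%), and by size of the fall probe 6410 was number 9 of the 26. The comparison of S2WT/U0126 with the 0 h arrays of all lines had drawn attention to the gene. Its call is therefore no separate support, and the refits below reuse its arrays.

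The call of probe 6410 held in each of the 24 fits that left out 1 array of the comparison, with values between -1.11 and -0.89. When the pool held no S3KO arrays, of which replicate 1 at 0 h read 1.38 on this probe, it was at -0.85 ± 0.17 and still called. With a pool of only the S2WT and S2WT/U0126 0 h arrays it was at -0.81 ± 0.21 and not called. With the S3KO arrays left out probe 1912 could be fitted and was at -0.32 ± 0.28 in S2WT/U0126, -0.38 ± 0.28 in S2WT, 0.36 ± 0.29 in S3WT and 0.40 ± 0.29 in S2KO. Averaged over its probes on each array, Gsk3b was at -0.51 ± 0.12 in S2WT/U0126 against all 0 h arrays. It was called there and in no other line, but the share of all averaged genes called is not given here. The average includes probe 6410, at -1.0 by itself, beside -0.31 ± 0.15 for 1358 and -0.23 ± 0.19 for 3416. Against the line's own 0 h arrays the average was at -0.38 ± 0.20 and not called.

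At 0.3 h the differences from the own 0 h arrays lay between -0.50 ± 0.30 (probe 1358 in S2KO) and 0.20 ± 0.36 (probe 3416 in S2WT), leaving aside S3KO. There probe 3416 was at 1.24 ± 0.40 and probe 6410 at -0.68 ± 0.29, on arrays whose labels name no TGF-β and against the scattered 0 h arrays described above. Limma called 0 of 19, with 2 at an unadjusted p under 0.05, where 0% of all probes were called in S2WT and 0.152% in S3WT, with 0.0235% for S2KO, 0.845% for S3KO and 0.0355% for S2WT/U0126. Without S3KO 0.3 h replicate 1 probe 3416 was called at 1.72. Without 0 h replicate 3 it rested on 0 h replicate 2 alone, at 2.18. Calls over all S3KO probes, 70 with every array, ran from 21 to 461 with 1 array left out, the most without 0 h replicate 3. Probe 3416 was at 0.30 without 0 h replicate 2, at 0.59 without 0.3 h replicate 2 and at 0.55 without subtraction of the 0 h arrays.

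Whether a line responded differently from another was estimated as a difference of responses. For probe 6410, S2WT/U0126 minus S2WT came to -0.57 ± 0.38. It was -0.17 on uncentred arrays, and -0.65 when the treated arrays of these lines were compared directly. The other probes gave 0.24 ± 0.35 for 1358, 0.25 ± 0.59 for 1912 and -0.55 ± 0.41 for 3416. S2KO minus S2WT was above 0 on all 4 probes, from 0.14 ± 0.42 for 3416 (-0.04 with arrays scaled to a common spread) to 1.09 ± 0.59 for 1912. S3KO minus S3WT was -0.49 ± 0.35 for 1358, -0.46 ± 0.34 for 6410 and 0.77 ± 0.46 for 3416. S3KO minus S2KO was -0.91 ± 0.34 for 6410, and -0.10 with the treated arrays alone. It was -0.52 ± 0.35 for 1358 and, in the opposite direction, 0.46 ± 0.46 for 3416. Of these 14 differences limma called 0, with 1 at an unadjusted p under 0.05, while the share called among all probes was 0.0386% for S2KO minus S2WT, 0.126% for S3KO minus S3WT, 0.0252% for S2WT/U0126 minus S2WT and 0.227% for S3KO minus S2KO. A difference that was not called does not show that the lines act alike. Without S3KO 0 h replicate 3, probe 6410 was called for S3KO minus S2KO at -1.20. Calls over all probes then rose from 16 to 266 for S3KO minus S2KO and from 9 to 311 for S3KO minus S3WT. Probe 3416, which then rested on 0 h replicate 2 alone, was at 1.71 for S3KO minus S3WT. Without 0 h replicate 2, probe 3416 turned to -0.17 for S3KO minus S3WT and to -0.48 for S3KO minus S2KO. Probe 6410 was at -0.07 for S3KO minus S3WT without 0 h replicate 1, and at 0.21 on the treated arrays alone.

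The 4 probes agreed weakly with each other. Over the arrays that measured both, the 6 pairs correlated with Pearson r from 0.07 (1358 with 3416, 70 arrays) to 0.25 (1358 with 1912, 66 arrays). Over group means the values ran from -0.12 (1358 with 3416, 25 groups) to 0.44 (1912 with 3416, 23 groups). Arrays of a line share their RNA source and all probes of an array share its hybridisation, so these values are a description. Weak agreement was general on these arrays. Among 1760 other pairs of probes that share a gene symbol the median r over arrays was 0.07, with quartiles at -0.04 and 0.20, and 4.26% of pairs exceeded 0.5. The median of the Gsk3b pairs was 0.23, and 5 of the 6 pairs lay between percentiles 69.5 and 79.9 of the other pairs, while 1358 with 3416 lay at percentile 49.7.

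**Figure D3:**
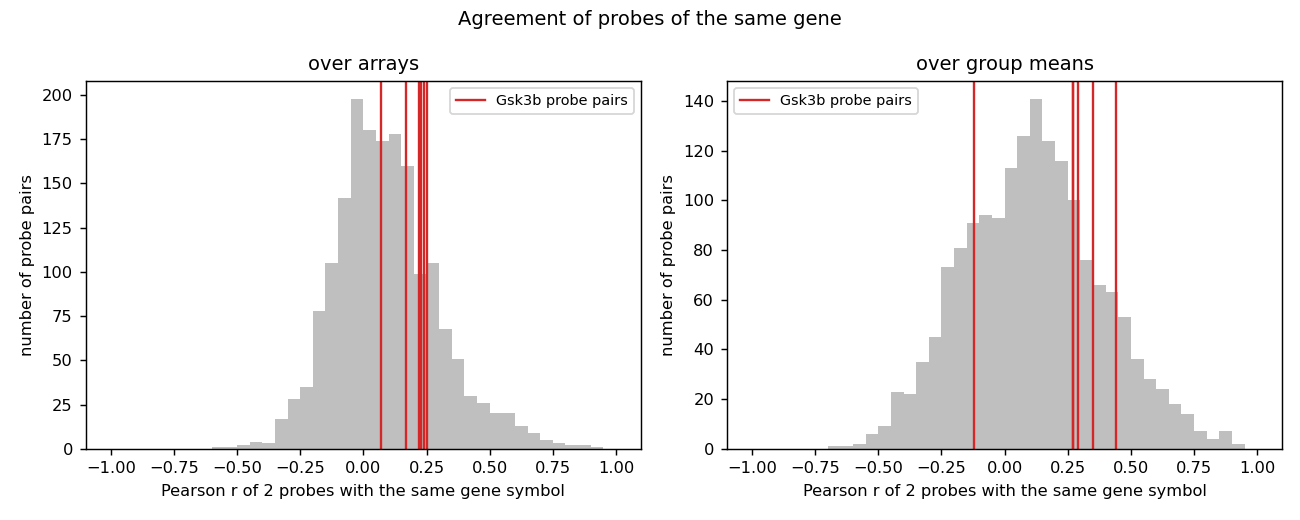
Histograms of Pearson r between pairs of probes with the same gene symbol (grey, y axis is the number of pairs), over single arrays (left) and over group means (right), with the 6 Gsk3b pairs as red lines. The Gsk3b pairs lie at 0.07 to 0.25 over arrays and at -0.12 to 0.44 over group means, inside the bulk of other genes.

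Probes of other genes tracked each Gsk3b probe more closely than the other Gsk3b probes did. Ranked by r over group means among 8719 probes, the best Gsk3b partner of probe 6410 was 1358, at rank 805 with r = 0.35. For probe 3416 the best was 1912 at rank 268 with r = 0.44. The genes most like probe 6410 over 25 groups were Adamts10, a secreted metalloprotease gene (r = 0.84), Grina, a membrane protein gene (r = 0.78), and Asl of the urea cycle (r = 0.76). In S2WT/U0126 their differences from own 0 h were -0.65 ± 0.46, -0.73 ± 0.59 and -0.31 ± 0.23, and in S3KO -1.60 ± 0.48, -1.49 ± 0.50 and -0.19 ± 0.23. Probe 1358 was most like Ptges3, the Hsp90 cochaperone p23 (r = 0.77), the replication origin gene Orc4 (r = 0.75) and the proteasome subunit gene Sem1 (r = 0.73). Probe 3416 was most like Slc25a1, the mitochondrial citrate carrier (r = 0.77), Hs6st1 of heparan sulfate synthesis and the ubiquitin ligase gene Rbck1 (both r = 0.74). Probe 1912 was most like Git2, Utp20 and the Argonaute gene Ago2, with r from 0.67 to 0.68 over 23 groups. The best of so many probes over 25 points is high by selection, and no gene stood in the list of more than 1 Gsk3b probe.

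Genes that act with GSK3 were described from 3 textbook lists of 133 genes in all, of which 63 had a single-symbol probe. Gsk3a, the paralogue, has no single-symbol probe, because both of its probes carry further symbols, so it is not described. Over the 5 lines limma called 4 of 365 list-probe differences against own 0 h arrays. The Wnt and β-catenin list had 1 higher call among 30 probes in S2KO and none in the other lines. The list of PI3K, Akt and other kinases that act on GSK3 had no call among 13 to 14 probes per line, with 0 to 3 at an unadjusted p under 0.05. The substrate list had 1 higher and 1 lower call among 29 probes in S2KO and 1 higher among 26 in S3KO. Of all probes in S2KO 0.393% were called higher and 0.123% lower, and in S3KO 0.683% higher. The list medians lay between -0.13 and 0.08, against -0.03 to 0.02 for all probes tested.

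The called list genes rest mostly on the 0 h arrays. Wnt5a, a secreted Wnt ligand, rose by 1.21 ± 0.30 in S2KO (limma, adjusted p = 0.0453), but was at 0.00 on the treated arrays without subtraction and with single arrays left out was called in 5 of 12 fits, between 0.78 and 1.68. Klc1, the kinesin light chain gene, was at 2.15 ± 0.42 in S3KO (limma, adjusted p = 0.0037), was at 0.09 without subtraction, and lost its call without 0 h replicate 2, at 0.92. Cyclin D1, Ccnd1, was at -2.0 ± 0.51 in S2KO and kept its call in 4 of 12 fits, between -2.99 and -0.22. Snai1, an epithelial repressor that GSK3β marks for destruction, rose by 1.63 ± 0.29 in S2KO (limma, adjusted p = 0.00272) and kept its call in 12 of 12 fits.

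Where no list member was called, those nearest were as follows. In S2WT/U0126 the smallest p belonged to Btrc, the ubiquitin ligase subunit that recognises phosphorylated β-catenin (-0.47 ± 0.21), Pik3r1, the regulatory subunit of PI3K (-0.86 ± 0.41), and 1 probe of Smad3 (-1.41 ± 0.52), with adjusted p from 0.452 to 0.767. The other Smad3 probes were at -0.14 ± 0.13 and -0.53 ± 0.70. In S3KO they were Ctnnb1, the β-catenin gene itself (1.03 ± 0.31, limma, adjusted p = 0.0802), and Pik3r1 (-1.28 ± 0.42, limma, adjusted p = 0.117). In S3WT Prkacb, a catalytic subunit of protein kinase A, was at 0.76 ± 0.18 (limma, adjusted p = 0.0609), Apc2, a relative of APC, at -1.87 ± 0.75 and Pxn, the focal adhesion gene paxillin, at 0.50 ± 0.23. In S2KO the kinase list had Ppp2r1a, a scaffold subunit of phosphatase PP2A, at 0.46 ± 0.23. In S2WT Snai1 was at 1.22 ± 0.29 (limma, adjusted p = 0.053), 1 probe of Fbxw11 at 0.29 ± 0.12 (the other at 0.08 ± 0.13) and Prkacb at 0.34 ± 0.18.

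Against the 0 h arrays of all lines the lists had 4 calls among 65 probes in S2KO. Higher were Snai1 (1.83 ± 0.19), the Wnt pathway repressor gene Tcf7l1 (0.58 ± 0.15) and the cell cycle inhibitor gene Cdkn1a (0.41 ± 0.12), and lower was Pik3r1 (-1.03 ± 0.28). Of all probes in that comparison 1.91% were called higher and 0.578% lower. In S2WT/U0126, the line in which Gsk3b probe 6410 was lowest, only Snai1 was called of 65 (0.78 ± 0.19, limma, adjusted p = 0.0274), and Ctnnb1 was at 0.20 ± 0.17. In S2WT Snai1 was called of 68 (0.92 ± 0.19). In S3WT limma called 0 of 68, with 6 at an unadjusted p under 0.05, and in S3KO 0 of 61, with 3. Of all probes 0.782% were called in S2WT/U0126, 1.27% in S2WT, 0.146% in S3WT and 0.0141% in S3KO.

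**Figure D4:**
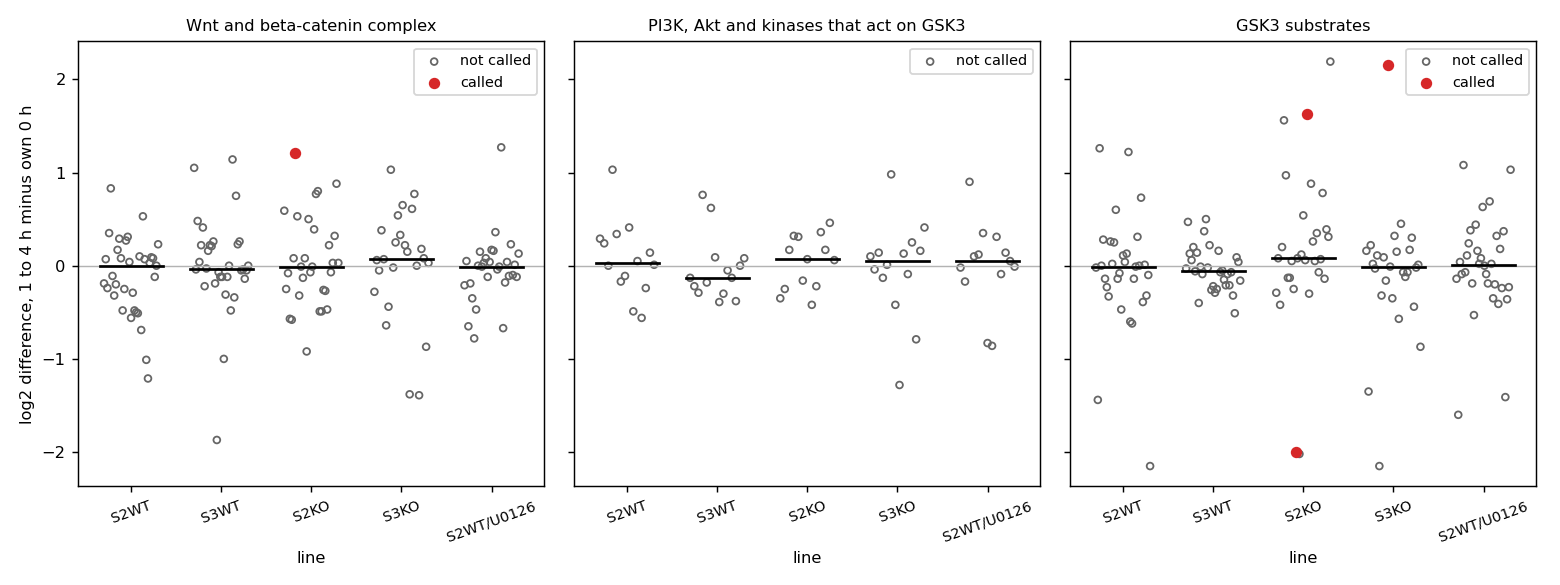
Log2 difference between the 1 to 4 h arrays and the own 0 h arrays (y axis) for each probe of the 3 lists of GSK3-related genes, by line; open grey points were not called, red points were called, and black bars are list medians. The 4 red points are Wnt5a, Snai1 and Ccnd1 in S2KO and Klc1 in S3KO, and the medians lie between -0.13 and 0.08.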

How the data were processed

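The authors deposited 1 log2 ratio per probe and array, a unit read from the values themselves. The sources used here do not state the dyes, scanner, background correction, normalisation or direction of the ratio. The 1344 deposited values above 16.6 on the log2 scale (all 16.61, the log2 of a ratio ceiling) were set to missing, as were 41670 blank cells, and each array was centred on its median, which ranged from -0.60 to 0.22. Symbols came from the platform annotation, in which 7348 probes have 1 symbol, 399 have several and 1229 are unnamed. They were updated through the gene ID where the mouse RefSeq table held it (7274 probes).

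Group means of all 74 arrays were fitted per probe in R 4.3.3, and variances were moderated with squeezeVar of limma 3.58.1. A probe was tested with at least 2 arrays in each group of a contrast. The fit was tested on simulated data. The number of arrays limits the precision. Same-numbered arrays of a line were compared as possible pairs. Their deviations had a mean r of 0.04 to 0.11 by line, against -0.05 to -0.02 for arrays with different numbers. The same-numbered arrays were thus slightly more alike in every line, and 47 of 146 such pairs exceeded 0.1. The main fit did not use the number as a pairing, so a weak pairing may be ignored there. A replicate block was tried as an alternative, but not for the comparisons with pooled 0 h arrays.

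The gene, the lists and the comparisons were chosen with earlier results of these data known. Genes most like a probe were the 3 single-symbol probes with the highest r. List genes named against own 0 h arrays are the called ones, up to 2 per list and line, or else the probe with the smallest p. Against pooled arrays the called ones are named, with Ctnnb1, chosen after its values were seen. The alternatives were 10 planned choices and 3 added after seeing the data (other pools of 0 h arrays, and the lists against pooled arrays).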

Additional observations from a re-analysis of the deposited data

Results flagged for a closer look

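Among the 4 probes, a search for compared lines with all treated arrays on opposite sides of their 0 h means picked out probe 1912. How many of all probes show such a split was not counted. Probe 1912 had values of opposite sign in the knockout lines. Its mean of the 1, 2 and 4 h group means minus the 0 h mean was -0.77 in S3KO, with each of 7 treated arrays below 0 h, and 0.60 in S2KO, with each of 8 above the 0 h mean. The difference was not tested, because S3KO had a single measured array for this probe at 0 h and another at 1 h. Both were replicate 3, which read 0.38, 0.13, 0.30, 0.19 and 0.11 from 0 to 4 h. The treated arrays furthest below it were replicates 1 and 2, which have no 0 h value. The S2KO difference of 0.60 ± 0.42 (SE) was not called by limma.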

How the results depend on the processing

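The counts of Gsk3b probes called depend on the 0 h arrays. Without subtraction of the 0 h arrays 3 of the Gsk3b responses were called, probe 1912 in S2WT (-0.63) and probe 6410 in S2WT (-0.35) and S2WT/U0126 (-1.0), where 23.1% and 14.3% of all probes were called in these lines. Uncentred, 2 were called against pooled 0 h arrays, probe 6410 in S2WT (-0.56) and in S2WT/U0126 (-1.0). Calls over all probes in that S2WT comparison rose from 96 to 295 on uncentred arrays, and those in S2WT/U0126 are not given here. Leaving out 1 array gave 0 to 2 calls against own 0 h arrays, 0 to 1 at 0.3 h, 1 in every fit against pooled arrays and 0 to 2 for the differences between lines, the highest without S3KO 0 h replicate 3 or, at 0.3 h, also without S3KO 0.3 h replicate 1. Calls over all probes in these S3KO comparisons with own 0 h arrays were also highest without 0 h replicate 3. A group left with 1 array was assumed to vary like the others. Over the settings that kept all arrays, 464 of 478 single Gsk3b differences moved by less than 1 replicate SD or kept their call. A further 13 moved by more, 1 lost its call, and 0 called values changed sign. The called values all belong to probe 6410 in S2WT/U0126 against pooled arrays. A replicate SD is wide against most of these differences. Probe 1912 in S2KO, at 0.14 without subtraction of the 0 h arrays against 0.60, counts as within it.

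The 4 list calls, of 365 tests, became 60 without subtraction of 0 h arrays, where 1.82% to 26.6% of all probes were called per line. The list calls were 2 uncentred, 2 with 0 and 0.3 h arrays as background and 2 with probes of a gene averaged. None was left when limma saw 1 line at a time, with 33 at an unadjusted p under 0.05. They became 2 to 9 when 1 array was left out, the latter without S3KO 0 h replicate 3. Without that replicate the S3KO calls over all probes rose as well, from 114 to 592. Ranges of calls over all probes in the other settings follow below. Averaging tests fewer features. The cause of the other shifts was not tested.

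With a replicate block in each line, Gsk3b calls stayed at 0 against own 0 h arrays, at 0.3 h and for the differences between lines, and list calls were 6. Over all probes the block changed the own 0 h calls from 10 to 23 in S3WT, and in the other lines by less than 1.5 times. Counts over all probes moved more with other settings. Against own 0 h arrays the calls ran from 2 to 1960 in S2WT (16), 2 to 733 in S3WT (10), 0 to 2214 in S2KO (42), 0 to 203 in S3KO (114) and 0 to 1214 in S2WT/U0126 (6), the lowest with 1 line at a time. The highest came without 0 h subtraction or, in S3KO, with arrays scaled to a common spread. Against pooled 0 h arrays S2WT/U0126 (59) had 25 calls without the S3KO arrays, 8 with the pool of S2WT and S2WT/U0126, 171 with array weights and 33 to 111 with 1 array left out.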
